A study of Bos taurus with 15 samples.

Results

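The genes described here receive, prepare and terminate a glucocorticoid signal: the glucocorticoid receptor NR3C1, the mineralocorticoid receptor NR3C2, the cortisol-converting enzymes HSD11B1 and HSD11B2, and the receptor's chaperones and co-chaperones FKBP4, FKBP5, HSP90AA1, HSP90AB1, PTGES3 and STIP1. Their probes were found by name only, through the gene name, gene ID or description in the array annotation, which gave 11 probes on 22 spots for 10 genes. The whole array holds 42990 spots that are not controls, for 21475 probes and 14730 named genes. Every gene has 1 probe except NR3C2, which has 2, and the brighter of these represents it.

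Total RNA of biceps brachii, an upper forelimb muscle, was collected from 15 cattle at slaughter and measured on 1-colour Agilent bovine arrays, 1 array per animal. In the prednisolone group, 8 animals (P25 to P32), called cows in the design text, received 30 mg of the synthetic glucocorticoid prednisolone per head by mouth each day for 35 days, and their RNA was extracted with TRIzol and cleaned on RNeasy MinElute columns. The 7 control animals (C17, C18 and C20 to C24) are each labelled as control, and their RNA was extracted with the RNeasy Mini kit. The treatment text attached to the control samples lists exposures to Finaplix, to Revalor, and to Revalor combined with the glucocorticoid dexamethasone, without saying that these 7 animals received any of them. Age, breed and housing are not given in the sources used here. Treatment and extraction method coincide, so their effects cannot be told apart.

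Glucocorticoids enter the cell and bind NR3C1, which is held ready for the hormone by the chaperone HSP90. STIP1 (also called HOP) hands the receptor over from HSP70 to HSP90, PTGES3 (p23) stabilises the mature complex, and the immunophilins FKBP5 and FKBP4 take turns on it: FKBP5 lowers hormone affinity and FKBP4 favours transport to the nucleus, where the receptor acts on its target genes. HSD11B1 regenerates cortisol from cortisone inside cells, HSD11B2 inactivates cortisol, and FKBP5 is itself a classic target gene of the receptor, which closes a feedback loop. In muscle this pathway is known for its part in protein breakdown and insulin resistance under glucocorticoid excess.

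Values are log2 intensities after each array was shifted to a common 75th percentile, and are means ± SD between animals. The share of spots with a value ran from 72.1% on C17 to 87.4% on C20. Depth in the sense of reads does not apply, and the number of arrays limits the precision: a gene well above background on all 8 treated arrays had a median 95% interval of 0.38 either side of its difference. All 8 skeletal muscle markers measured were well above background on every treated array. Some arrays also carried transcripts of other tissues: the protamine PRM1, a sperm chromatin protein, lay between 2.25 and 17.48 in prednisolone-treated animals and between 10.89 and 17.84 in controls, highest on C20 and P31. The terminal transferase DNTT of thymocytes lay between 1.51 and 12.10 in treated animals and between 2.22 and 13.77 in controls, highest on C17. Of the 8 thymocyte markers listed, 6 were on the array. PTCRA, CD3E and CD8A were well above background on all 8 treated arrays, and RAG1 on none. In bulk muscle, fewer cells of a type and less RNA per cell cannot be told apart.

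No difference between prednisolone-treated and control animals passed the test for any of the 10 genes, and the groups overlapped for each of them. In the limma fit over all 20891 tested probes, with Benjamini-Hochberg adjustment over all of them, the adjusted p of the 10 representative probes lay between 0.994 and 0.999, and the share of all tested probes called at an adjusted p of 0.05 was 0%. At an unadjusted p of 0.05, 706 probes (3.38%) passed, and none of the 10 genes was among them. The groups did not overlap for 57 probes (0.273%), again none of the 10, and an exact Wilcoxon test with the same adjustment called 0 probes, with 617 at an unadjusted p of 0.05. Of the 10 differences, 7 were positive, with a median of 0.07, beside 52% positive and a median of 0.01 among all 14454 tested genes.

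**Figure D1:**
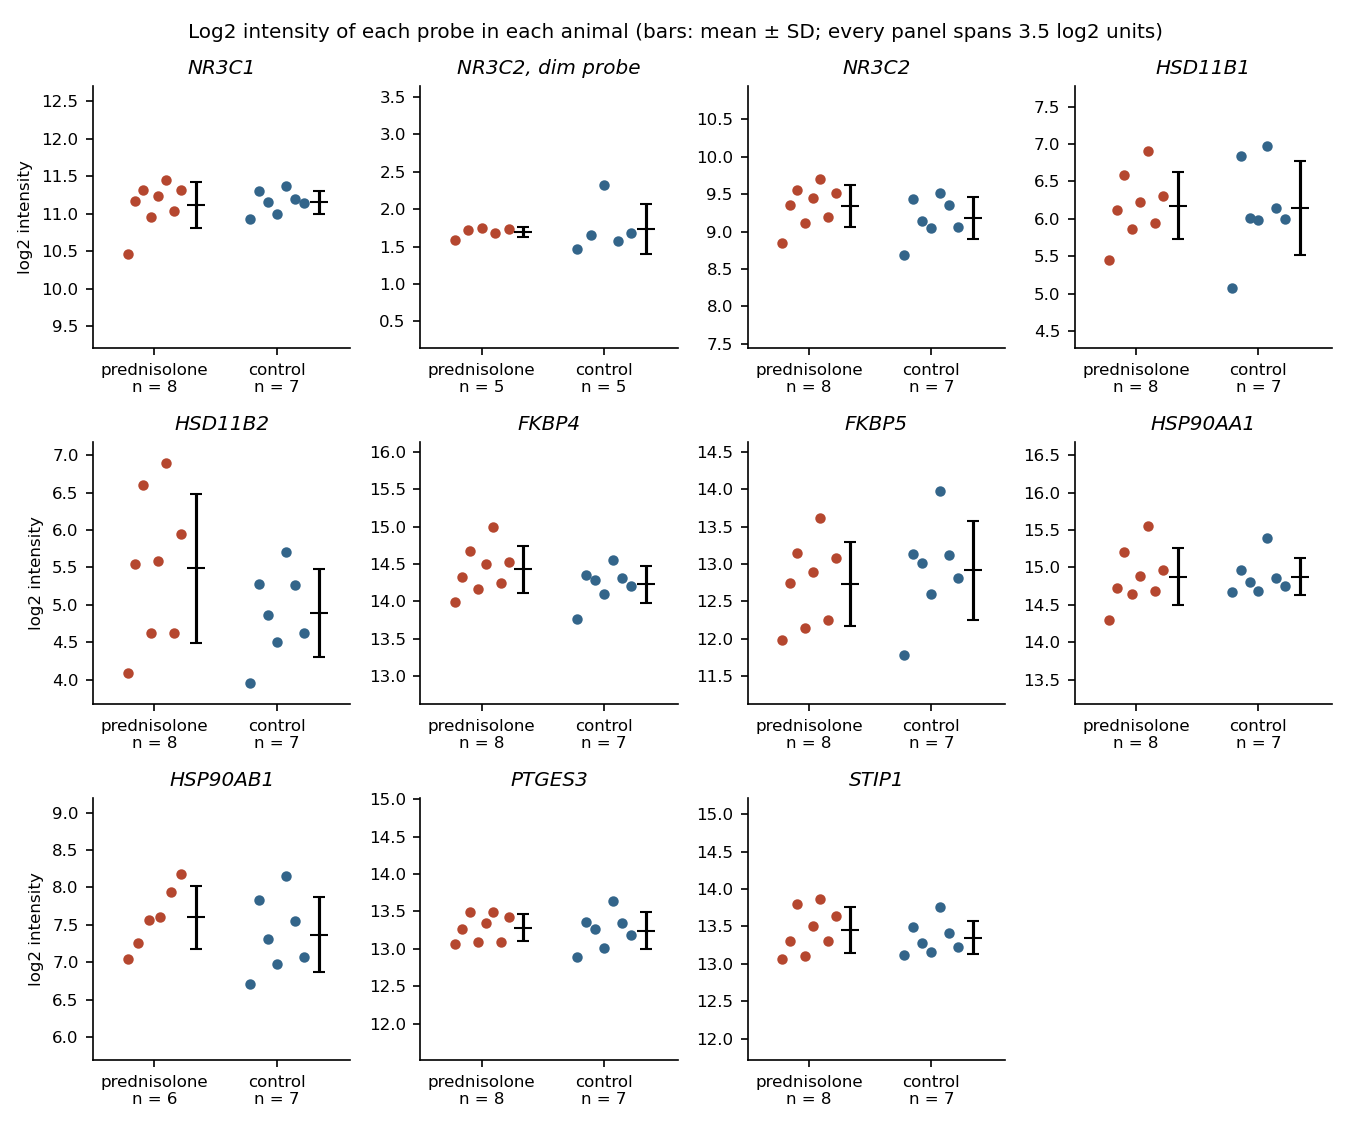
Log2 intensity (vertical axis) of all 11 probes of the 10 genes, 1 point per animal, with prednisolone-treated animals (red) on the left and controls (blue) on the right of each panel and bars for the group mean ± SD. The groups overlap in every panel, and among the representative probes the spread between animals is widest for HSD11B2 and FKBP5 and tightest for PTGES3.

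The glucocorticoid receptor itself comes first in the pathway. NR3C1 measured 10.46 (P28), 11.20 and 11.45 as lowest, median and highest value in treated animals, against 10.93, 11.15 and 11.37 in controls. The means were 11.12 ± 0.31 (n = 8) in treated animals and 11.15 ± 0.16 (n = 7) in controls, a difference of -0.04 with a 95% interval from -0.33 to 0.26 (limma adjusted p = 0.995, exact permutation p = 0.811 over 6435 splits). Most treated animals, 6 of 8, lay inside the control range, with P28 below it and P30 above it. On a linear scale the interval runs from 0.794-fold to 1.20-fold, so a change of the receptor transcript by a larger factor lies outside it. Without P28 the difference was 0.06, the opposite sign.

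NR3C2, which binds cortisol as well as aldosterone and is known mainly from kidney and other salt-transporting tissues, was read by a probe that the array annotation names only through the description of an expressed sequence tag. It had 8.85 (P25), 9.40 and 9.70 (P27) as lowest, median and highest value in treated animals and 8.69 (C24), 9.14 and 9.52 (C23) in controls. The means were 9.34 ± 0.28 (n = 8) in treated animals and 9.18 ± 0.29 (n = 7) in controls, a difference of 0.16 (95% interval -0.16 to 0.48, limma adjusted p = 0.994, exact permutation p = 0.287). In 6 of 8 treated animals the value exceeded the control median, and the groups overlapped. Without C24 the difference was 0.08. The other NR3C2 probe, which carries the gene's ID, was well above background on 0 of the 8 treated arrays and had values of 1.69 ± 0.06 in 5 treated animals and 1.74 ± 0.33 in 5 controls, so no fold is given. The 2 probes therefore disagree on whether the transcript is detected, and which of them reads NR3C2 was not tested. The defining kidney tubule transcripts UMOD, SLC12A1, SLC12A3 and CALB1 were well above background on 0 of 8 treated arrays, while the other kidney tubule marker on the array, the phosphate transporter SLC34A1, was so on all 8.

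The cortisol enzymes were next in the pathway. HSD11B1 measured 5.45 (P31), 6.17 and 6.91 (P27) as lowest, median and highest value in treated animals, against 5.08 (C20), 6.01 and 6.97 (C22) in controls. All 8 treated animals fell inside the control range, and the difference was 0.03 (95% interval -0.54 to 0.60), from means of 6.18 ± 0.45 (n = 8) and 6.15 ± 0.63 (n = 7) in treated and control animals. The limma adjusted p was 0.998 and the exact permutation p 0.906. Its interval is wider than for the receptor, from 0.688-fold to 1.52-fold. Leaving out C20 alone gave -0.14.

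HSD11B2, which protects mineralocorticoid receptors from cortisol, varied more between animals than any of the other 9 genes. Its probe measured 5.95, 6.90, 5.54, 6.60, 5.58, 4.63, 4.09 and 4.62 in treated animals P25 to P32, against 4.87, 4.51, 3.95, 5.27, 5.28, 4.63 and 5.71 in controls C17, C18 and C20 to C24. By these values, treated animals P25, P26 and P28 lay above every control and the other 5 lay inside the control range. For P25 and P28 this depends on averaging 2 unlike spots of C24, which read 4.80 and 6.62. On spot 2 alone, C24 at 6.62 exceeded P25 (5.99) and P28 (6.60) but not P26 (6.90). The P28 value rests on spot 2, because the scanner software had not found spot 1. The processed signal of P28 was 43.6 for spot 1 and 104.0 for spot 2, both marked well above background. Spot 1 was also not found on P30 and P31, where it read 17.2 and 25.2 against 18.3 and 20.6 for spot 2. The means were 5.49 ± 0.99 (n = 8) and 4.89 ± 0.59 (n = 7) in treated and control animals, a difference of 0.60 (95% interval -0.26 to 1.46, limma adjusted p = 0.994, exact permutation p = 0.185). This was the largest difference of the 10 genes and did not pass limma's test even before adjustment (limma unadjusted p = 0.16). The pooled SD between animals, 0.83, exceeded that of 93.8% of probes that were well above background on all 8 treated arrays. The SD of a single spot, estimated from paired spots on the 6 arrays that had both, was 0.53. The median of this spot SD among those probes was 0.089. The high spot SD of HSD11B2 comes from C24, where the paired spots differed by -1.82. On P25, P26, P27, P29 and C22 the paired spots differed by only -0.12 to 0.16.

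**Figure D2:**
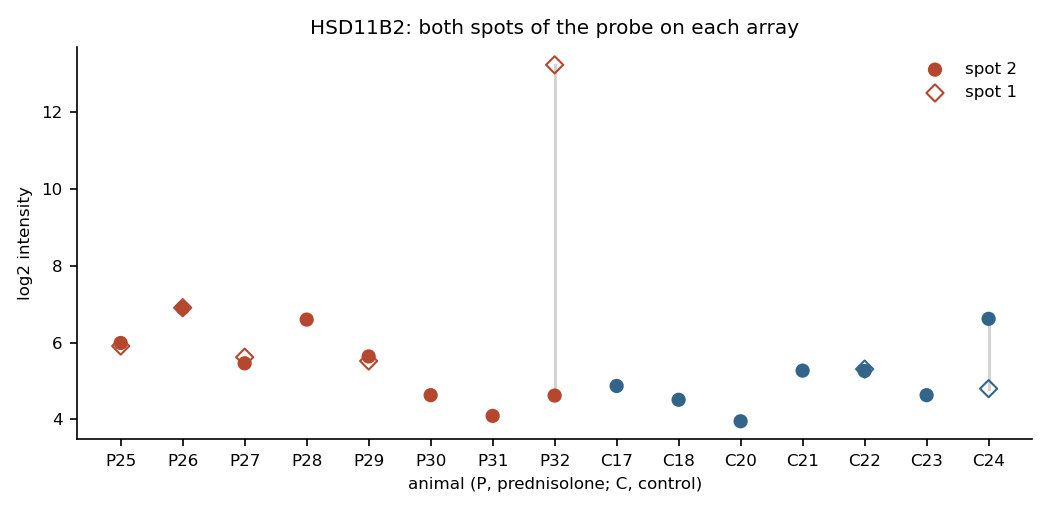
Log2 intensity (vertical axis) of the 2 spots of the HSD11B2 probe on each array (horizontal axis), red for prednisolone-treated animals at left and blue for controls at right, filled circles for spot 2 and open diamonds for spot 1. Spot 1 of P32 stands at 13.24, far above spot 2 of the same array at 4.62.

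The size of the HSD11B2 difference turned on 1 spot. On P32 the spots of the probe read 9746.6 and 24.6 in deposited intensity, 8.63 apart on the log2 scale, and the scanner software marked the bright one as a non-uniform outlier, the only member spot so marked. With that spot left out, as here, P32 measured 4.62. With it kept, the group difference was 1.14 (95% interval -0.07 to 2.34, limma adjusted p = 0.993). Both spots had a usable value on only 6 of the 15 arrays, and on C24 they differed by -1.82. Taken from the spot that has a value on all 15 arrays, the difference was 0.46 (95% interval -0.47 to 1.39). Scanner marks exist here for the treated arrays only, so control spots could not be screened in the same way.

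Both enzymes were lowest on the same arrays, P31 among the treated animals and C20 among the controls. These 2 arrays also had the highest testis germ cell marker level (mean of the 6 markers with values on all 15 arrays, centred over arrays), 3.47 on P31 and 4.19 on C20, within ranges from -3.54 to 3.47 in treated animals and from -0.94 to 4.19 in controls. Of the 8 germ cell markers, 2 were well above background on all 8 treated arrays and PRM2 on none. The level of steroid-producing cell markers, formed in the same way from 5 markers, was 2.22 on P31 and 1.39 on C20, the highest of each group. It was 1.71 on P26, the array highest in HSD11B2. All 7 of these markers were on the array, with STAR, CYP17A1, CYP21A2 and INSL3 well above background on all 8 treated arrays. The part of these transcripts in the enzyme values was not tested. Without C20 and P31, the HSD11B1 difference was -0.04 and the HSD11B2 difference 0.64.

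The arrays highest in HSD11B2 by probe value, P26 and P28, carried liver transcripts. The albumin transcript ALB, made by hepatocytes, measured 9.24 on P26 and 8.85 on P28, and where it had a value on the other arrays it lay between 1.42 and 2.80 in treated animals and between 1.44 and 2.32 in controls. The hepatocyte marker level (mean of the 4 markers with values on all 15 arrays, centred over arrays) was highest on P26 (1.96) and P28 (1.73), within ranges from -0.90 to 1.96 in treated animals and from -1.72 to 1.21 in controls. It was next highest on C20 (1.21) and P31 (1.1), the arrays lowest in HSD11B2. All 7 hepatocyte markers were on the array, with APOA1, TTR, FGB and TF well above background on all 8 treated arrays and none at 0 of 8. The HSD11B2 difference was 0.40 without P26, 0.44 without P28, and 0.18 (95% interval -0.56 to 0.92) without both. Both are treated arrays with the highest HSD11B2 probe values, so leaving them out had to lower the difference, whatever transcripts they carried. Leaving out both was chosen after seeing the data. The part of liver transcripts in the HSD11B2 values was not tested.

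The immunophilins that exchange on the receptor differed in their spread. FKBP5 measured 12.75, 11.98, 12.25, 12.15, 12.89, 13.15, 13.08 and 13.62 in treated animals P25 to P32, against 13.12, 13.98, 13.01, 12.60, 11.78, 12.81 and 13.13 in controls C17, C18 and C20 to C24. All 8 treated animals lay inside the control range, since both the lowest animal (C22) and the highest (C18) were controls. The means were 12.73 ± 0.57 (n = 8) in treated animals and 12.92 ± 0.66 (n = 7) in controls, a difference of -0.19 (95% interval -0.83 to 0.46, limma adjusted p = 0.994, exact permutation p = 0.572). FKBP5 ranged over 2.20 log2 units (4.58-fold) among the 15 animals. The SD of a single spot, estimated from the paired spots of each array, was 0.09 log2 units. The pooled SD of FKBP5 between animals, 0.61, exceeded that of 86.1% of bright probes. Without C18 the difference was -0.01, and without C22 it was -0.37.

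FKBP4, the partner that favours nuclear transport, measured 13.99 (P25), 14.42 and 14.99 (P31) as lowest, median and highest value in treated animals, against 13.77 (C17), 14.29 and 14.56 (C23) in controls. The means were 14.43 ± 0.32 (n = 8) and 14.23 ± 0.25 (n = 7) in treated and control animals, a difference of 0.20 (95% interval -0.13 to 0.53, limma adjusted p = 0.994, exact permutation p = 0.201). In 5 of 8 treated animals the value exceeded the control median, and P29 and P31 exceeded every control. Without P31 the difference was 0.12. No fold change of FKBP4 above 1.44 or below 0.916 lay inside the interval.

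The HSP90 chaperones make up the core of the receptor complex. HSP90AA1, the stress-inducible cytosolic HSP90, was found under an older gene name, and measured 14.30 (P29), 14.81 and 15.55 (P31) as lowest, median and highest value in treated animals, against 14.67 (C17), 14.81 and 15.39 (C23) in controls. Its group medians were equal at 2 decimals, and the difference of -0.01 had a 95% interval from -0.37 to 0.36 (limma adjusted p = 0.999, exact permutation p = 0.969). Means were 14.87 ± 0.38 (n = 8) and 14.88 ± 0.25 (n = 7) in treated and control animals. Both P31 and C23 stood above the others of their group.

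HSP90AB1, the constitutive cytosolic HSP90, rests on a probe named only by the description of an expressed sequence tag. It measured 7.05, 8.18, 7.26, 7.60, 7.57 and 7.94 in treated animals P25 to P28, P31 and P32, against 7.07, 6.98, 6.71, 7.55, 7.83, 8.15 and 7.31 in controls. The values overlapped, with P26 the only treated animal above every control. The means were 7.60 ± 0.42 (n = 6) and 7.37 ± 0.51 (n = 7) in treated and control animals, a difference of 0.23 (95% interval -0.32 to 0.77, limma adjusted p = 0.994, exact permutation p = 0.393 over 1716 splits), which was 0.11 without P26 and 0.36 without C23. P29 and P30 have empty cells and were left out of its fit, because the scanner software had not found the spots. The scanner files nevertheless hold processed signals of 178.9 and 179.4 on P29 and of 133.9 and 120.8 on P30, all marked well above background.

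PTGES3, the p23 co-chaperone that stabilises the hormone-binding form, had the tightest values of the 10 genes. It lay between 13.07 and 13.49 with a median of 13.30 in treated animals and between 12.89 (C18) and 13.64 (C23) with a median of 13.27 in controls. All 8 treated animals were inside the control range. The means were 13.28 ± 0.18 (n = 8) in treated animals and 13.24 ± 0.25 (n = 7) in controls, a difference of 0.04 (95% interval -0.22 to 0.30, limma adjusted p = 0.995, exact permutation p = 0.710). Only 11.7% of bright probes varied less between animals.

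STIP1, the adaptor between HSP70 and HSP90, measured 13.06 (P32), 13.41 and 13.87 (P29) as lowest, median and highest value in treated animals, against 13.12 (C24), 13.28 and 13.76 (C23) in controls. In 6 of 8 treated animals the value exceeded the control median, although only 4 of 8 lay inside the control range, with 2 below it and 2 above. Means of 13.45 ± 0.30 (n = 8) and 13.35 ± 0.22 (n = 7) in treated and control animals gave a difference of 0.10 (95% interval -0.21 to 0.41, limma adjusted p = 0.994, exact permutation p = 0.475). Leaving out 1 animal at a time gave 0.04 (without P29) to 0.17 (without C23).

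**Figure D3:**
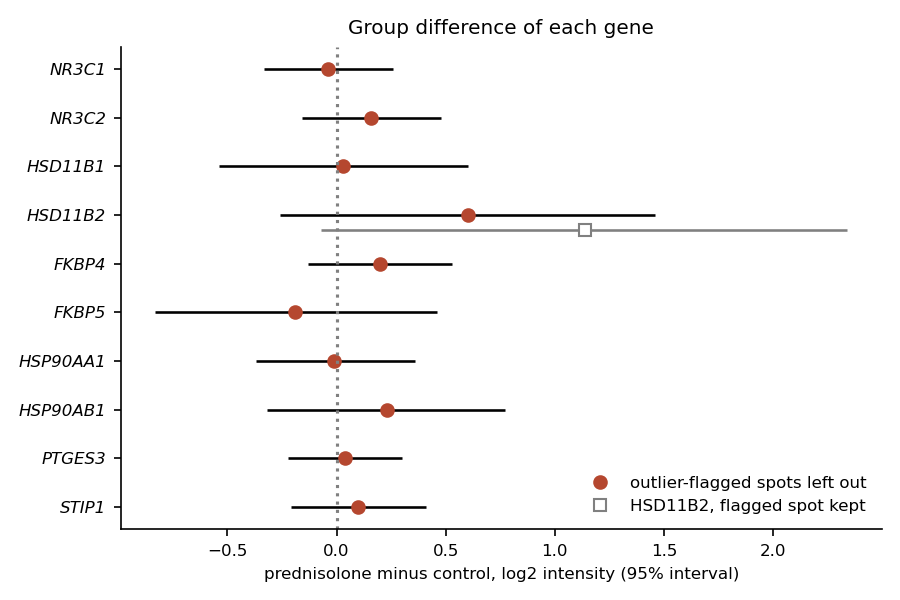
Difference of each gene between prednisolone-treated and control animals (horizontal axis, log2 intensity, prednisolone minus control) with its 95% interval from the fit, as red points, and HSD11B2 with its marked P32 spot kept as a grey open square. Every interval includes 0, and among the red points that of HSD11B2, from -0.26 to 1.46, is the widest.

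All 10 representative probes were well above background on all 8 treated arrays, and none of their spots was saturated. For the control arrays no detection marks were at hand, so the same statement cannot be made for them. The treated arrays lay on 5 slides scanned over 3 days, and P32 was alone on its slide and its day. The slides of the controls are not known here, so slide and group cannot be told apart.

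The genes were next compared with each other across animals, after removing the group means. Among the 36 pairs of the 9 genes measured in all 15 animals, 0 passed an adjusted p of 0.05 in permutations within groups, and 6 had an unadjusted p under 0.05. The receptor NR3C2 and the adaptor STIP1 had r = 0.75 (permutation p = 0.00183, adjusted 0.0598) and rho = 0.79 (permutation p = 0.00142). Their r was 0.68 within treated animals and 0.89 within controls, and 0.70 without P25 and C24, the animals farthest out in NR3C2. The NR3C2 values come from its brighter probe, named only by the description of an expressed sequence tag, and its target was not tested. The co-chaperones FKBP4 and STIP1 had r = 0.74 (permutation p = 0.00332, adjusted 0.0598) and rho = 0.68 (permutation p = 0.0105), 0.75 within treated animals and 0.72 within controls, and 0.70 without C17 and P31. Neither pair passed the adjustment over the 36 pairs.

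The enzyme HSD11B2 and FKBP5 had r = -0.64 (permutation p = 0.0116, adjusted 0.139) and rho = -0.66 (permutation p = 0.0147). The value was -0.85 within treated animals and -0.37 within controls, and -0.58 without P31 and P26. P26 and P28, which carried liver transcripts, were highest in HSD11B2 (6.90 and 6.60) and lowest among treated animals in FKBP5 (11.98 and 12.15). The correlation without both was not computed. This correlation also rests on leaving out the marked P32 spot, since it was -0.04 with that spot kept. HSD11B1 and HSD11B2 had r = 0.58 (permutation p = 0.0165, adjusted 0.149) and rho = 0.52 (permutation p = 0.0573), which became 0.32 without C20 and P31, the arrays where both were lowest, and 0.44 with the marked spot kept. HSD11B1 and FKBP5 had r = -0.58 (permutation p = 0.0348, adjusted 0.251) and rho = -0.57 (permutation p = 0.0376). The last of the 6, FKBP4 and PTGES3, had r = 0.52 (permutation p = 0.0462, adjusted 0.277) and rho = 0.50 (permutation p = 0.0668). NR3C1 and FKBP4 had r = -0.43 (permutation p = 0.16, adjusted 0.442) and rho = -0.56 (permutation p = 0.0399, adjusted 0.287), and r = -0.71 without P28 and P30. NR3C1 had no pair at an unadjusted p of 0.05 by Pearson's r, and its value against FKBP5 was r = 0.32 (permutation p = 0.246) and rho = 0.21 (permutation p = 0.457).

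**Figure D4:**
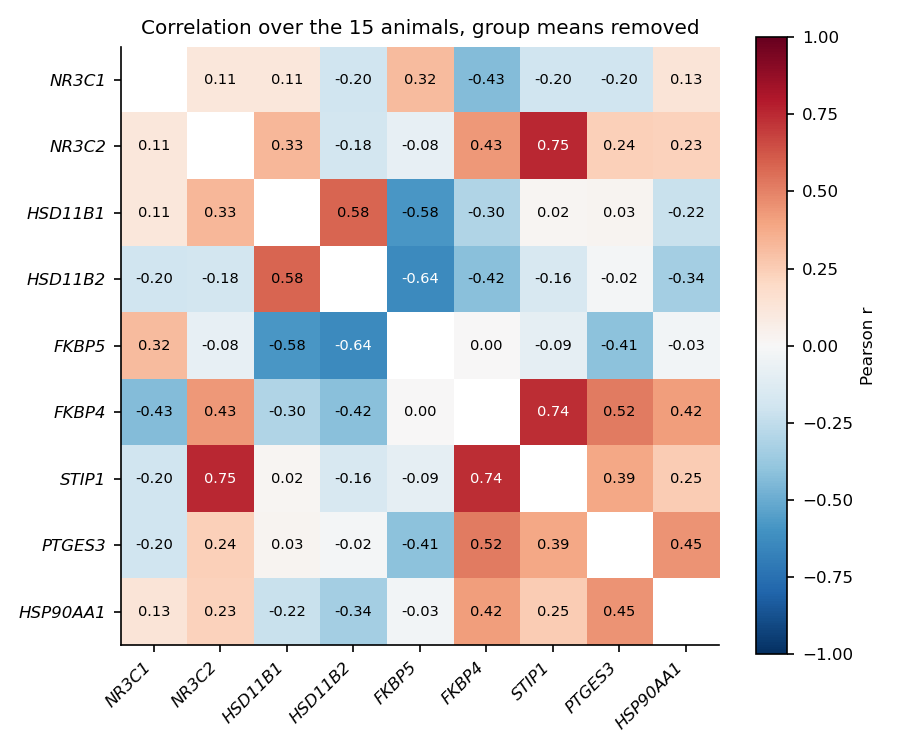
Pearson correlation over the 15 animals, with group means removed, between each pair of the 9 genes measured in all animals, with colour from blue (negative) to red (positive) and r printed in each cell. NR3C2 is read by its brighter probe, whose target was not tested. The warmest cells are NR3C2 with STIP1 (0.75) and FKBP4 with STIP1 (0.74), and the coldest is HSD11B2 with FKBP5 (-0.64).

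Since FKBP5 is a receptor target, it was set against 9 other receptor target genes measured in all animals. None of the 9 relations passed an adjusted p of 0.05, and 2 had an unadjusted p under 0.05. FKBP5 and GLUL, glutamine synthetase, had r = 0.57 (permutation p = 0.036, adjusted 0.162) and rho = 0.60 (permutation p = 0.026), and 0.46 without C22 and C18. FKBP5 and the transcription factor KLF9 had r = 0.57 (permutation p = 0.0361, adjusted 0.162) and rho = 0.47 (permutation p = 0.0894), and 0.27 without C22 and C18, so this relation rests on those animals.

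The genes whose pattern across the 15 animals was most like each member were taken from 9561 genes, by Pearson's r after removing group means. This is a description only, since all genes were measured on the same 15 arrays. For HSP90AA1 these were BAG3 (r = 0.83), HSPB8 (0.82) and HSPD1 (0.82), of which the first and the third are named only by the array description. For STIP1 they were MARS2 (0.88), AHSA1 (0.82) and PRMT5 (0.76). AHSA1, an activator of the HSP90 ATPase, is itself on the list of HSP90 machine genes used below. FKBP5 was nearest to TGM6 (0.87), NAA15 (0.85) and KTN1 (0.83), and NR3C1 to IREB2 (0.82), RAB5A (0.78) and ADAM10 (0.75).

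NR3C2, by its brighter probe, was most like MAP2K6 (0.86), ELAVL1 (0.84) and LDB3 (0.82). HSD11B1 was most like FGD1 (0.82), ZBTB17 (0.81) and B3GALT2 (0.81). HSD11B2 was nearest to EIF3I (0.91), LGALS9 (0.90) and MYL6 (0.90), values that were 0.46, 0.34 and 0.51 with the marked P32 spot kept. FKBP4 was most like YTHDF3 (0.83), DNAJB2 (0.82) and TMEM254 (0.82), and PTGES3 most like DEDD2 (0.87), H2AC6 (0.86) and CCDC117 (0.84). Which genes ranked nearest changed when 2 animals, C20 and P31, were left out. Then 0 of the 3 nearest genes were kept for HSD11B1, FKBP4 and HSP90AA1. The count kept was 1 for NR3C1, HSD11B2 and STIP1, and 2 for NR3C2, FKBP5 and PTGES3. Over all alternatives, 617 of 621 r values of the named neighbours stayed within the 95% interval of the main r. That interval is wide: FKBP4 with YTHDF3 still counted as inside it at 0.69 after quantile normalization. The alternatives also reused the same arrays or most of them, and the neighbours had been picked for their high r in these data. This count therefore cannot show that the neighbours are stable.

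Other genes of the pathway were described from 5 lists. Among 18 other HSP90 machine genes, 0 passed the adjusted test and 0 an unadjusted p of 0.05; 15 were positive and 3 negative, with a median of 0.04 that ranged from -0.05 to 0.11 under other settings. DNAJA1, an HSP40 that loads HSP70, measured 9.51 ± 0.89 in treated animals and 9.24 ± 0.69 in controls (difference 0.27, 95% interval -0.56 to 1.1). ST13, an HSP70-interacting co-chaperone, measured 10.87 ± 0.27 in treated animals and 10.73 ± 0.11 in controls (difference 0.14, 95% interval -0.12 to 0.40). HSP90B1, the HSP90 of the endoplasmic reticulum, measured 12.75 ± 0.59 in treated animals and 13.02 ± 0.58 in controls (difference -0.27, 95% interval -0.89 to 0.35). The limma adjusted p of each was 0.994, over 8 treated animals and 7 controls.

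Among 14 coregulators of the receptor measured, 6 were positive and 8 negative with a median of -0.04, and 0 passed either test. NCOR1, a corepressor, measured 11.50 ± 0.32 in treated animals and 11.13 ± 0.39 in controls, a difference of 0.38 (95% interval -0.01 to 0.77, limma unadjusted p = 0.0552 and adjusted p = 0.994), and the control median was exceeded in 7 of 8 treated animals. MED1, a Mediator subunit, measured 9.04 ± 0.33 and 9.34 ± 0.48 in treated and control animals, a difference of -0.30 (95% interval -0.74 to 0.14). The coactivator NCOA2 was well above background on 2 of 8 treated arrays only, and measured 3.00 ± 0.80 in 8 treated animals and 3.42 ± 0.94 in 6 controls.

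Of 7 genes measured that supply or clear steroids, 6 were positive and 1 negative with a median of 0.07, and 0 passed either test. The carbonyl reductase CBR1 measured 9.65 ± 0.24 in treated animals and 9.43 ± 0.22 in controls, a difference of 0.21 (95% interval -0.07 to 0.49). SERPINA6, the plasma carrier of cortisol made mainly in liver, measured 6.73 ± 0.24 in treated animals and 6.59 ± 0.28 in controls, a difference of 0.14 (95% interval -0.17 to 0.44). No fold is given for the efflux pump ABCB1, whose probe cleared background on 0 of 8 treated arrays. Among 4 other steroid receptors, ESR1 measured 10.94 ± 0.30 in treated animals and 10.75 ± 0.33 in controls (difference 0.20, 95% interval -0.16 to 0.55), while ESR2 and PGR were well above background on 1 and 0 of the 8 treated arrays. H6PD, which feeds cofactor to HSD11B1, was not found on the array by name.

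Among the 10 receptor target genes, 9 were negative and 1 positive with a median of -0.19, and 0 passed the adjusted test. The median was -0.11 without C18 and -0.05 with array weights. SGK1, a kinase induced by both corticoid receptors, measured 10.26 ± 0.47 (n = 8) in treated animals and 11.05 ± 0.66 (n = 7) in controls, a difference of -0.79 (95% interval -1.38 to -0.19, limma unadjusted p = 0.0134 and adjusted p = 0.994). It was below the control median in all 8 treated animals, as were KLF9 and the phosphatase DUSP1. TSC22D3 was below its control median in all 7 treated animals with a value. The other listed targets fell on both sides. PER1 and MT2A were above their control median in 6 of 8 treated animals, ZBTB16 in 4, KLF15 in 3, and CEBPD and GLUL in 2. Outside this list, the coregulator NCOA1 was above its control median in all 8 treated animals, with a difference of only 0.11. How often all treated animals fall on 1 side among all tested genes was not counted. KLF9 measured 12.98 ± 0.21 in treated animals and 13.19 ± 0.34 in controls (difference -0.21, 95% interval -0.53 to 0.11). DUSP1 measured 14.01 ± 0.43 in treated animals and 14.27 ± 0.38 in controls (difference -0.27, 95% interval -0.71 to 0.17). These genes were known from earlier results of the same data to be lower, so their count is no independent evidence of a direction.

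**Figure D5:**
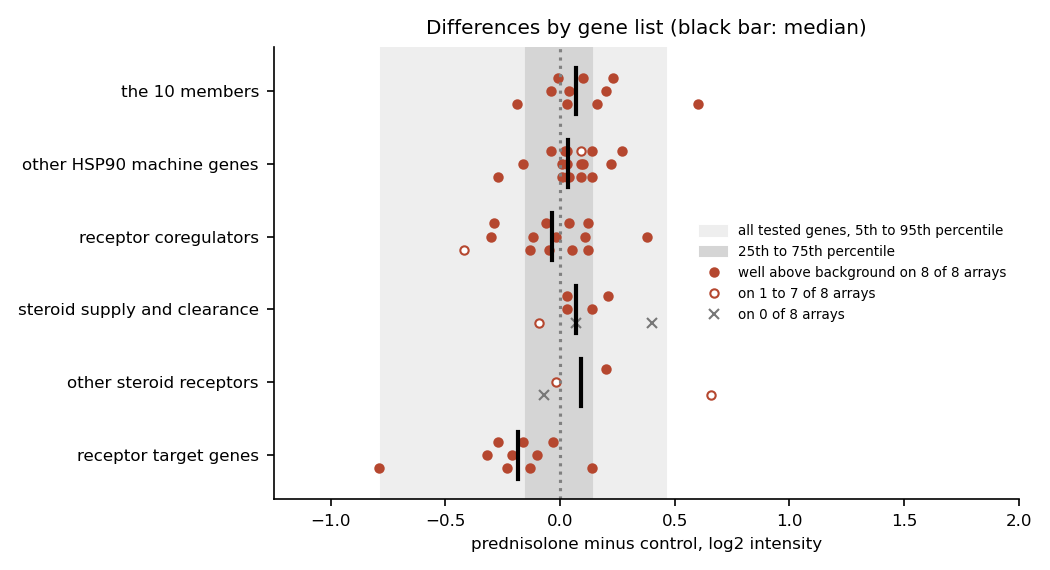
Difference (horizontal axis, log2 intensity, prednisolone minus control) of each of the 10 genes and of the genes on 5 related lists (rows), with a black bar at each median, filled points for genes well above background on 8 of 8 treated arrays, open points for 1 to 7 arrays and crosses for 0 arrays. Grey bands give the 5th to 95th and the 25th to 75th percentile of single genes among all those tested. List medians run from -0.19 for the receptor targets to 0.09 for the other steroid receptors, and SGK1 at -0.79 is the gene farthest from 0.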

How the data were processed

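The deposited value table holds 1 linear intensity per spot and array. The authors worked in R 2.11.1, per the submitters' processing notes; their between-array method is not stated in these sources. Per the design text each slide was scanned at 100% and 10% sensitivity, and the processed signal is background-subtracted and detrended. The file headers of the 8 treated arrays name Feature Extraction 9.5.1.1, and these files gave the detection, found and outlier marks. No control scanner files were analysed here.

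Intensities were taken as log2 and arrays were shifted to an equal 75th percentile, computed over probes present on all 15 (10.56 to 10.76 before). Spots of a probe (2 each) were averaged, after leaving out those marked as outliers, 15 to 36 spots per treated array; this step was added after the files were seen. Probes with at least 3 values per group were fitted with limma 3.58.1 in R 4.3.3 (lmFit and eBayes without trend), with Benjamini-Hochberg adjustment over all of them and a threshold of 0.05. Exact permutation tests over splits of the animals are two-sided. Correlations used group-centred values and 100000 permutations within groups, two-sided, with Benjamini-Hochberg adjustment within 36 pairs and within 9 relations. The fit was tested on simulated data.

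Of 21475 probes, 16365 were named through the array annotation and a RefSeq gene table, and the brightest probe stood for a gene. Genome positions are not given, since no build is named. The 10 genes, the lists and the tests were chosen with earlier results of these data known. Named genes are the 10, the 3 of each list with the smallest unadjusted p, the 3 nearest in pattern, and the markers PRM1, DNTT and ALB beside results they touch. TSC22D3, NCOA1 and the remaining receptor targets are named for their counts against the control median. Of 9 listed muscle markers, 8 were on the array. Replicates are separate animals. Alternatives covered the scaling, array weights, a variance trend, each animal and the animals with transcripts of other tissues left out, filters, the background correction, marked spots and exact tests; leaving out P26 and P28 together was chosen after seeing the data.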

Additional observations from a re-analysis of the deposited data

Results flagged for a closer look

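Among 22 sets of values, 1 for each probe and group, tested for a sample far from the rest, 2 held such a sample; chance marks about 5% of such sets. HSP90AA1 measured 15.39 in control C23, and the nearest other control measured 14.97. The NR3C2 probe that was not well above background on any treated array measured 2.32 in control C21, and the nearest of the 4 other controls with a value measured 1.68.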

How the results depend on the processing

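No difference of the 10 genes passed the threshold under any alternative run; 236 of 260 recomputed values kept their sign and 24 did not, all of them of differences between -0.19 and 0.23. The cause was not tested. With equal array medians HSP90AA1 was 0.01. With array weights HSD11B1 was -0.10, FKBP5 0.03, HSP90AB1 -0.01, PTGES3 -0.02 and DNAJA1 -0.06. Without C20 and P31 HSD11B1 was -0.04 and PGR 0.03, and without C17 as well HSD11B1 was -0.08, PTGES3 -0.03, STIP1 -0.01, DNAJA1 -0.13 and PGR 0.02. Without P26 and P28, chosen after seeing the data, NR3C1 was 0.05, HSD11B1 -0.06 and FKBP5 0.04. Leaving out each animal in turn gave -0.08 to 0.06 for NR3C1, -0.14 to 0.17 for HSD11B1, -0.10 to 0.08 for HSP90AA1, -0.02 to 0.11 for PTGES3 and -0.22 to 0.03 for PGR. HSD11B2 ranged from 0.18 to 1.14 over all alternatives, the lowest without P26 and P28 and the highest with the marked P32 spot kept, where its r was 0.46 with EIF3I, 0.34 with LGALS9 and 0.51 with MYL6. The list medians ranged from -0.07 to 0.04 for the coregulators, 0.06 to 0.15 for steroid supply, 0.01 to 0.25 for the other steroid receptors and -0.25 to -0.05 for the receptor targets. The r of FKBP5 with NAA15 was 0.37 after quantile normalization. With normexp background correction on the treated arrays the mean level was 7.41 for HSD11B1, 7.51 for HSD11B2 and 8.22 for HSP90AB1, each higher than the 6.18, 5.49 and 7.60 reported, so levels of dim probes depend on the background correction.

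Over all probes, leaving out each animal in turn called 0 to 1 probes (1 without C23 and 1 without P31), and 1 probe was called without C20 and P31 and also without C17, C20 and P31, none of them of the 10 genes. Against 706 probes at an unadjusted p of 0.05, array weights gave 1368, leaving out P31 1479, leaving out C20 and P31 1135, leaving out C17 as well 1259, using only spots with a value on all arrays 433, only probes well above background on all 8 treated arrays 419 and only probes with values on all 15 arrays 461; the last 3 settings test fewer probes. No paired analysis was possible because the groups share no animal numbers. Promoter motifs and protein identities were not run, since no such sequences were used here.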
